A study of Mus musculus with 62 samples.

Results

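The proteasome genes described here are the 50 protein-coding mouse genes whose symbol begins with Psma, Psmb, Psmc, Psmd, Psme, Psmf or Psmg and goes on with a number, out of 48795 genes counted by RNA sequencing. The family was chosen by its symbols, but with an earlier result of these data known: Psmb3, a beta-ring subunit, was among the genes with the smallest p-values in the comparison of Fam13a knockout (KO) and wild-type (WT) male adipose tissue. The difference between KO and WT in male fat is therefore given as a description, with no p-value. Tests were made of diet, of tissue, of genotype in liver and in females, and of whether the effect of diet differed by genotype.

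The study asked what the loss of Fam13a does in metabolic tissues. Whole-body KO mice, made by deleting a floxed exon in every cell, were compared with WT mice on a C57BL/6 background. Subcutaneous adipose tissue (SAT, the inguinal pad), visceral adipose tissue (VAT, the gonadal pad) and liver were taken from males on chow or a high-fat diet (HFD), and SAT and VAT from females on HFD. Each of the 16 combinations of tissue, sex, diet and genotype had 4 libraries, except WT females, which had 3 for SAT and 3 for VAT, giving 62 libraries in all. The HFD began in young adults and lasted several months by the study's methods, and the age of the chow-fed mice whose RNA was sequenced is not given in the sources used here. The labels do not say which libraries came from the same mouse, nor that each came from a separate mouse, so p-values measure the spread between these libraries.

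The proteasome is the barrel-shaped protease that breaks down proteins tagged with ubiquitin. Its 20S core has outer rings of alpha subunits, which gate the channel, and inner rings of beta subunits, of which Psmb5, Psmb6 and Psmb7 carry the active sites. The 19S cap has a base, with a ring of ATPases (Psmc genes) that unfold substrates and pull them into the core, and a lid that includes the deubiquitinase Psmd14. In immune cells, and in other cells under interferon, Psmb8, Psmb9 and Psmb10 take the place of Psmb5, Psmb6 and Psmb7 to form the immunoproteasome, which alters the peptides available to MHC class I. Psme1 and Psme2 (PA28 alpha and beta) form an interferon-inducible activator of the core, Psme4 (PA200) and Psme3 (PA28 gamma) are nuclear activators, Psmf1 (PI31) was named as an inhibitor, and Psmg1 to Psmg4, Psmd5, Psmd9 and Psmd10 are assembly chaperones that leave the finished particle.

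The 50 genes comprised 7 alpha-ring, 4 non-catalytic (structural) beta, 3 constitutive catalytic and 3 immunoproteasome genes, 6 ATPases, 3 other base and 8 lid subunits, 3 base and 4 core chaperones, 5 activator genes and the inhibitor. The remaining 3 were Psma8, the alpha subunit of testis, Psmb11, the catalytic subunit of the thymus, and Psmc3ip, which carries the prefix but is a meiotic recombination factor and no subunit. Between 48 and 49 of the 50 passed the filter on low counts in each fit. Psmb11 never did, with 7 counts in all over 6 libraries. On GRCm38 with GENCODE M21 annotation, Psmb9 (chr17:34181987-34187764, minus strand) and Psmb8 (chr17:34197721-34201454, plus strand) lie side by side in the MHC region, and Psmb9 overlaps Tap1 on the other strand. The other catalytic genes are spread over the genome, with Psmb5 at chr14:54614119-54618022, Psmb6 at chr11:70525367-70527858, Psmb7 at chr2:38588036-38644087 and Psmb10 at chr8:105935735-105938444.

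The promoters of several subunit genes hold the core of the antioxidant response element, TGACNNNGC, which is read by Nfe2l1 and Nfe2l2, the factors that raise proteasome genes when the particle is blocked or under oxidative stress. RefSeq gave a promoter window for 42 of the 50 genes (250 bases before to 50 after the start on GRCm38.p6). All matches listed for the members, of this and the other motifs, lay in the 250 bases before the start. The core was found on either strand in the windows of 5 of them, 11.9%, against 10.2% of 32851 mouse promoter windows. All 5 are shown so that the matched letters can be seen, and they are no more than letters at a share near that of all windows. Capitals mark the core, read in its own direction.
Psmb5, chr14:54618024-54618052, minus strand: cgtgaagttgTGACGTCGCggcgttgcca
Psmb6, chr11:70525338-70525366, plus strand: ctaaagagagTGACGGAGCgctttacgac
Psmc6, chr14:45329587-45329615, minus strand: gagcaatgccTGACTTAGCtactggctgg
Psmd9, chr5:123228149-123228177, plus strand: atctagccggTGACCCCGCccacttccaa
Psmd12, chr11:107479278-107479299, minus strand: ggggcaaatgTGACACAGCaga

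For the interferon-gamma activated site, TTCNNNGAA, 2 of 42 windows held a match, 4.76% against 7.02% of all windows. One lay in Psmb8, inside an exon of an alternative transcript, and the other in Psmg1. Both are shown.
Psmb8, chr17:34198088-34198116, plus strand: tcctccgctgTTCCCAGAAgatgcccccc
Psmg1, chr16:95991185-95991210, minus strand: actcatgTTCTCTGAAtccgcttgca
The box CCAAT was present in 15 windows (35.7%, against 33.8% of all windows), and the core bound by ETS factors, TTCCGG, in 18 (42.9%, against 12%). These matches describe letters and not binding.

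Libraries held between 4959783 and 28723319 counts in genes, with a median of 21694089. Nuclear ribosomal RNA took 0.0127% to 75.4% of a library's counts, and the highest share and the lowest total fell on the same library, liver male HFD KO replicate 3. Fam13a itself, counted over the whole gene and so only a partial check of an exon deletion, had a lower median in KO than in WT in each of the 8 sets of tissue, sex and diet, for example 37.3 against 71.7 CPM (counts scaled to library size) in chow liver, with overlap in some sets. The summed CPM of 9 hepatocyte markers lay between 64480 and 117032 in liver and at or below 264 in fat, and that of 9 adipocyte markers between 5842 and 18105 in fat and 69.3 and 182 in liver. Chow and HFD libraries were sequenced on different lanes, and in chow-fed males each tissue had its own lane, so that diet or tissue and lane cannot be told apart. The names of SAT male HFD KO replicate 1 and VAT male HFD WT replicate 1 give another flow cell than all the rest. Without these 2 libraries, 95 results for single genes or ratios kept their outcome and 4 no longer passed the test. SAT differed in how much lymph node RNA it held: the summed CPM of 13 B- and T-cell markers was 256 to 828 in all 4 chow WT libraries, 578 in 1 and 10.3 to 37 in the other 3 chow KO libraries, and 7.85 to 14.9 in HFD libraries other than WT replicate 2, at 299.

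In WT males on chow, most proteasome transcripts were more abundant in liver than in either fat depot, but the 3 immunoproteasome subunits were lower in liver than in SAT. Of 48 members tested against SAT, 42 were higher in liver and 5 lower (edgeR quasi-likelihood test, false discovery rate 10%), where 35.6% of all genes tested were higher and 41.5% lower. The median log2 difference was 1.37 for the members and -0.13 for all genes. Against VAT, 44 of 48 were higher and 2 lower, where 35.3% of all genes were higher and 37.3% lower, with medians of 1.14 and -0.05. With upper-quartile scaling the medians of all genes were -0.48 and -0.38, and those of the members 1.02 and 0.81. As reads per kilobase scaled to library size (RPKM), which allows genes of different length to be compared, the alpha-ring genes lay between 19.5 (Psma2) and 69.3 (Psma6) in liver, 8.85 and 29.6 in SAT, and 9.3 and 33.3 in VAT (group means of 4 libraries). Within a tissue, subunits that enter the particle in equal numbers thus differed severalfold in RPKM. This range depends on the merged exon length used as divisor. Before that division Psma2 and Psma6 read 71.5 and 85.6 CPM in liver, so their RPKM gap need not be a difference in mRNA. By RPKM, the chaperone Psmg3 was lowest of the core chaperones in all 3 tissues, at 1.23, 0.659 and 0.556. In liver CPM it was not, at 3.57 against 3.33 for Psmg4.

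The highest liver level relative to fat was that of Psmd9, a chaperone of the base. Its WT chow libraries read 37.3, 52.7, 52.3 and 55.4 CPM in liver, 8.73, 8.79, 9.22 and 8.54 in SAT and 10.8, 9.26, 9.77 and 10.4 in VAT. The liver values stood apart from those of both depots, by 2.57 ± 0.13 (log2, SE) over SAT and 2.40 ± 0.13 over VAT (adjusted p = 7.45e-09 and 1.17e-08, edgeR). Psmd9 overlaps Hpd, a tyrosine catabolism gene on the other strand, whose median was 1907 CPM in chow liver and 0.243 in chow SAT. Since the strand setting of the counting is not given in the sources used here, reads of the 2 genes may be mixed in liver. Psmd6, a lid subunit, was 2.16 ± 0.12 higher in liver than in SAT (adjusted p = 1e-08, edgeR), Psmc4 of the ATPase ring 2.23 ± 0.15 (adjusted p = 4.85e-08), Psmb5 2.04 ± 0.18 (adjusted p = 5.23e-07) and Psme4 1.56 ± 0.13 (adjusted p = 3.96e-07).

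Psmb5 and Psmb8, which occupy the same site of the core, ranked the tissues differently. Psmb5, the chymotrypsin-like constitutive subunit, gave 14.8, 17.7, 13.2 and 22.1 CPM in chow WT liver, 4.03, 5.08, 4.15 and 4.23 in SAT, and 5.88, 5.79, 4.51 and 6.31 in VAT. Its immune counterpart Psmb8 gave 24.7, 22.7, 20.3 and 21.5 CPM in liver, 50.2, 47.6, 50 and 30.6 in SAT, and 21.1, 14.5, 14.4 and 16.3 in VAT. Psmb5 was thus highest in liver without overlap, whereas Psmb8 was highest in SAT without overlap. The liver-to-SAT difference of Psmb8 was -0.91 ± 0.16 (adjusted p = 2.31e-04, edgeR), that of Psmb9 -1.16 ± 0.24 (adjusted p = 6.79e-04) and that of Psmb10 -0.57 ± 0.17 (adjusted p = 0.00849). Against VAT, liver was higher in Psmb8 by 0.53 ± 0.16 (adjusted p = 0.0119, edgeR) and in Psmb9 by 0.72 ± 0.24 (adjusted p = 0.0175), and Psmb10 stood at 0.30 ± 0.17 (adjusted p = 0.139). These SAT values came from 4 libraries with 256 to 828 CPM of lymph node markers. In KO males on chow, leaving out the 1 SAT library with that signal, the Psmb10 difference had the other sign, at 0.12, and in WT males on HFD liver was higher than SAT in Psmb9 by 0.71 ± 0.20 (adjusted p = 0.00727, edgeR) and in Psmb10 by 0.44 ± 0.20 (adjusted p = 0.0657).

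**Figure D1:**
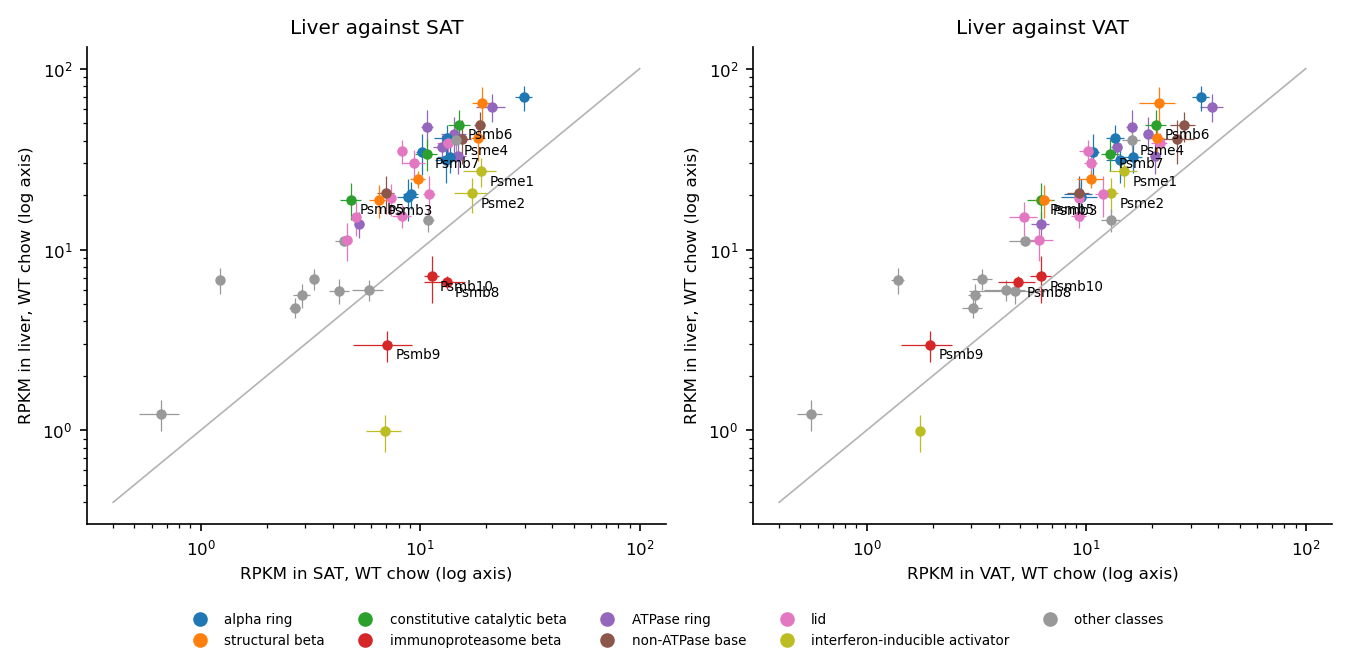
Mean RPKM of the proteasome genes in chow WT liver (vertical) against SAT (left) and VAT (right), on log axes, with bars of 1 SD over 4 libraries, colours for the subunit classes and the line of equal level. Psma8, Psmb11 and Psmc3ip, too low in at least 1 of the tissues compared, are not drawn. Nearly all genes lie above the line, and Psmb8, Psmb9 and Psmb10 lie below it against SAT and slightly above it against VAT. Psme2b lies below it against both.

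Between the fat depots of chow WT males, 12 of 48 members were higher in VAT and 6 lower, where 25.1% of all genes tested were higher and 21.9% lower. Neither count was an excess over the share of all genes. The higher members included Psmc1 (0.80 ± 0.15, adjusted p = 0.00184, edgeR) and Psmc4 (0.57 ± 0.14, adjusted p = 0.00897) of the ATPase ring, Psmd4, the ubiquitin receptor of the base (0.73 ± 0.20, adjusted p = 0.0125), and Psmd8 of the lid (0.67 ± 0.12, adjusted p = 0.00137). The lower members were the 3 immunoproteasome subunits and the 3 interferon-inducible activator genes, of which Psme1 was lost, at -0.39 to -0.24, on leaving out any 1 of 8 of the 12 libraries in the fit (all but liver replicates 2 and 3, SAT replicate 4 and VAT replicate 3), and Psme2, at -0.38 to -0.32, without SAT replicate 1 or VAT replicate 3. Psmb9 stood at -1.87 ± 0.24 (adjusted p = 1.21e-04, edgeR), and Psmb8 stood at -1.44 ± 0.16 (adjusted p = 5.37e-05). In KO males on chow without the SAT library rich in lymph node markers, 0 members passed the test and Psmc4, Psmb6, Psmb10, Psme1, Psme2, Psme2b, Psmd8, Psmd2 and Psmd4 had the other sign. The share of all genes called in that fit is not given here. Among WT males the count fell to 11 without SAT male chow WT replicate 3.

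Proteasome transcripts differed between HFD and chow in all 3 tissues of the males, in a different way in liver than in fat. Chow and HFD libraries were on different lanes, and the age of the sequenced chow-fed mice is not given. Diet therefore cannot be told apart from lane, nor from any difference in age. Rises, falls and HFD effects below describe HFD against chow libraries with this limit. In liver the transcripts of most 20S and 19S subunits fell while those of the immunoproteasome subunits rose. In SAT and VAT most subunit transcripts that passed the test rose, and those of the immunoproteasome rose in VAT and were mixed in SAT. Values over the 16 male libraries of each tissue are the mean effect of KO and WT.

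**Figure D2:**
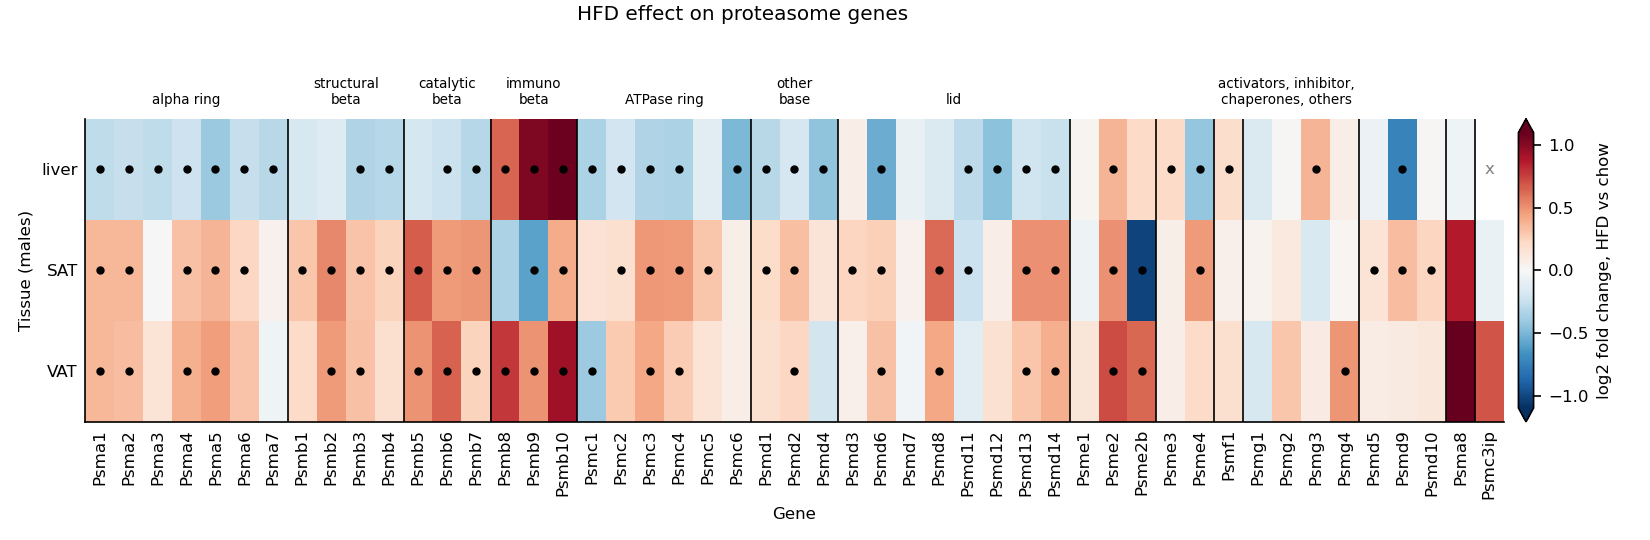
log2 fold change on HFD against chow (colour) of each tested proteasome gene in male liver, SAT and VAT, ordered by subunit class, with dots for genes at a false discovery rate of 10% and a cross where the gene did not pass the filter. The liver row is mostly blue with 3 red immunoproteasome genes, and the fat rows are mostly red. The colour scale ends before the VAT value of Psma8.

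In liver, 33 of 48 tested members changed: 7 rose and 26 fell, where 20.6% of all genes tested rose and 20.1% fell. The median log2 change was -0.22 over the members and -0.00 over all genes, and 35 of the 48 were below 0. All 7 alpha-ring genes fell, by -0.41 to -0.23, as did 5 of 6 ATPases, the 3 other base subunits, 5 of 8 lid subunits, 2 of 4 structural beta subunits and 2 of 3 constitutive catalytic subunits. Each tested genotype on its own gave fewer calls, 15 in WT (5 higher, 10 lower) and 16 in KO (5 higher, 11 lower). Of all genes 15.6% were higher and 14.4% lower in WT, and 11.3% and 10.3% in KO, so that the 5 higher members were no excess in either. The ribosomal RNA share moved with diet, with medians of 0.461% in WT and 17.7% in KO on chow and 0.0268% and 0.0303% on HFD. With this share as a covariate 33 members were called, 6 higher and 27 lower. Without the library with the highest share there were 28 calls, 7 higher and 21 lower, and without chow KO replicate 3 the call of Psmb4 was lost (-0.23). In bulk tissue, a smaller share of a cell type and less RNA per cell cannot be told apart.

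The largest liver decrease was again that of Psmd9, from 37.3, 50.1 and 55.4 CPM (lowest, median and highest of 8 libraries) on chow to 24.3, 29.3 and 36.8 on HFD. No HFD library reached the chow range, and the change was -0.73 ± 0.10 (adjusted p = 2.47e-05, edgeR). Hpd on the opposite strand had medians of 1907 and 1807 CPM on the 2 diets. Psmd6 went from 69.1, 98.6 and 128 CPM to 46.5, 71.7 and 81.9, with overlap, a change of -0.55 ± 0.10 (adjusted p = 2.58e-04). Psmc6 of the ATPase ring went from 95.7, 131 and 175 CPM to 71.7, 99.2 and 119 (-0.49 ± 0.10, adjusted p = 6.76e-04, edgeR). Of the other members with 2 of the smallest p in their class, Psmd12 of the lid stood at -0.45 ± 0.09 (adjusted p = 5.48e-04), Psmd4 of the base at -0.44 ± 0.10 (adjusted p = 0.00257), the ATPase Psmc1 at -0.35 ± 0.09 (adjusted p = 0.00599) and the alpha subunit Psma5 at -0.41 ± 0.11 (adjusted p = 0.00644).

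Among the catalytic subunits of liver, Psmb7, the trypsin-like site, went from 84.9, 123 and 153 CPM to 73.8, 103 and 115, a change of -0.31 ± 0.09 (adjusted p = 0.0112, edgeR). Psmb6, the caspase-like site, went from 69.1, 96.1 and 130 to 71.7, 87.1 and 97 CPM (-0.23 ± 0.10, adjusted p = 0.0669), a call lost, at -0.22 to -0.18, on leaving out chow KO replicate 3, chow WT replicate 2 or 4, HFD KO replicate 1 or HFD WT replicate 1. Psmb5 went from 11.2, 16.3 and 24 to 13.1, 16 and 17.7 CPM and did not pass the test (-0.19 ± 0.12, adjusted p = 0.233). Psmb3 went from 31.3, 44.2 and 64 to 31.9, 38.9 and 41.7 CPM, a change of -0.33 ± 0.10 (adjusted p = 0.0189). The HFD values of all 4 lay within or near the chow range and were less spread. The activator Psme4 went from 260, 356 and 430 to 195, 280 and 295 CPM (-0.42 ± 0.08, adjusted p = 4.72e-04, edgeR).

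All 3 immunoproteasome genes rose in HFD liver. Psmb8 went from 11.2, 20.9 and 24.7 CPM to 25.3, 31.6 and 43.6, so that every HFD library exceeded every chow library (0.64 ± 0.09, adjusted p = 3.31e-05, edgeR). Psmb9 went from 5.39, 9.85 and 13.1 to 11.1, 20.7 and 26.1 CPM (1.02 ± 0.12, adjusted p = 4.32e-06). Psmb10 went from 6.93, 12.4 and 16.7 to 15.2, 27.3 and 38 CPM (1.08 ± 0.14, adjusted p = 1.28e-05). In both, 1 HFD library lay within the chow range. Psme2 rose as well, from 25.2, 37.2 and 43.9 to 39.4, 48 and 61.3 CPM (0.38 ± 0.09, adjusted p = 0.00389), whereas its partner Psme1 read 44.4, 60.1 and 69.2 on chow and 55, 62.9 and 75.2 on HFD (0.03 ± 0.08, adjusted p = 0.823, edgeR). The other members that rose were Psme3 (0.21 ± 0.06, adjusted p = 0.01), Psmf1 (0.20 ± 0.06, adjusted p = 0.0151) and Psmg3 (0.38 ± 0.16, adjusted p = 0.0856), the last of which was lost, at 0.32 to 0.39, on leaving out any 1 library other than chow KO replicates 1 and 3, chow WT replicate 2, HFD KO replicate 3 and HFD WT replicate 1.

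Related genes in HFD liver moved as follows. Of 12 tested genes of MHC class I loading, 6 rose and 2 fell, with Nlrc5, the class I transactivator, at 0.35, the peptide transporters Tap1 and Tap2 at 0.49 and 0.46 and the editor Tapbpl at 0.40. Of 12 interferon-response genes 8 rose and 0 fell, among them Ifit3 (1.05), Isg15 (1.08) and Gbp3 (0.82). Of 19 proteasome partners 1 rose and 8 fell, including the scaffold Ecpas (-0.44), the Vcp cofactor Ufd1 (-0.50) and the deubiquitinase Usp14 (-0.38). Among 5 regulators, Nfe2l1 rose by 0.33, Keap1 rose by 0.21, and Ngly1 and Ddi2, which deglycosylate and cleave Nfe2l1, had -0.27 and -0.20. The summed macrophage marker level was 305 to 526 CPM over all male liver libraries, with 1 of 11 markers higher and 4 lower on HFD, and 2 of 9 hepatocyte markers rose and 5 fell. Their part in these changes was not tested.

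In SAT, 32 of 49 members changed on HFD: 29 rose and 3 fell, where 29.9% of all genes tested rose and 30.8% fell. The median log2 change was 0.24 over the members and -0.02 over all genes, and 42 of the 49 were above 0. All 3 constitutive catalytic and all 4 structural beta subunits rose, with 5 of 7 alpha-ring genes, 4 of 6 ATPases, 2 of 3 other base subunits, 5 of 8 lid subunits and all 3 base chaperones. None of the 4 core chaperones passed the test (edgeR). The ribosomal RNA share had medians of 16.4% in WT and 1.63% in KO on chow, and 0.0303% and 3.15% on HFD, and with it as a covariate 33 members were called, 30 higher and 3 lower. Of 11 macrophage markers 5 rose and 1 fell, and their summed level overlapped between the diets, at 512 to 1075 CPM on chow and 567 to 1405 on HFD. With the macrophage score as a covariate 32 members were called, 30 higher and 2 lower. The 3 that fell were Psmb9, Psme2b and the lid subunit Psmd11 (-0.24 ± 0.07, adjusted p = 0.00781).

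Psmb5 in SAT went from 4.03, 5.52 and 8.01 CPM on chow to 6.48, 8.59 and 11.7 on HFD, an increase of 0.67 ± 0.10 (adjusted p = 1.73e-04, edgeR). Within each genotype the diets did not overlap, at 4.03 to 5.08 against 6.48 to 8.77 CPM in WT and 5.95 to 8.01 against 8.42 to 11.7 in KO. Psmb6 went from 24.6, 30.9 and 46.8 to 32.3, 46.5 and 58.1 CPM (0.47 ± 0.10, adjusted p = 0.00225), and Psmb7 from 32.8, 42.6 and 58.3 to 48, 58.5 and 72.1 (0.48 ± 0.09, adjusted p = 5.14e-04). Psmb2, another beta subunit, went from 20.7, 23.7 and 35.2 to 28.6, 36 and 43.1 CPM (0.53 ± 0.09, adjusted p = 3.41e-04). Psmb3 went from 13.8, 16.6 and 22.4 to 16.4, 20.8 and 27.4 CPM (0.31 ± 0.08, adjusted p = 0.00431, edgeR). Over both genotypes, the upper chow libraries of all 5 genes reached into the HFD range.

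In the cap, the deubiquitinase Psmd14 rose in SAT from 28, 32.2 and 38.5 to 33.9, 46.1 and 53.6 CPM (0.50 ± 0.07, adjusted p = 1.01e-04, edgeR). Psmd9 rose from 8.54, 8.76 and 9.22 to 9.66, 10.9 and 12.9 CPM with no overlap (0.34 ± 0.06, adjusted p = 7.25e-04), opposite to its change in liver. Here Hpd read at most 4.88 CPM in any library. Psmd13 of the lid stood at 0.50 ± 0.08 (adjusted p = 1.94e-04), Psmd2 of the base at 0.33 ± 0.06 (adjusted p = 7.03e-04), and the ATPases Psmc4 and Psmc3 at 0.47 ± 0.07 and 0.48 ± 0.10 (adjusted p = 1.24e-04 and 0.0013). The alpha subunits Psma5 and Psma2 stood at 0.38 ± 0.08 and 0.37 ± 0.09 (adjusted p = 0.0018 and 0.00331, edgeR). Psme4 rose from 113, 135 and 195 to 171, 199 and 212 CPM (0.47 ± 0.08, adjusted p = 5.4e-04).

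The immune members of SAT did not move together. Psmb10 rose from 9.64, 17 and 20.5 to 17.6, 20.5 and 24.5 CPM (0.41 ± 0.10, adjusted p = 0.00493, edgeR) and Psme2 from 21.3, 29.9 and 36.4 to 32.3, 41.4 and 45.5 (0.50 ± 0.10, adjusted p = 0.00137). Psmb9 fell from 7.21, 19.5 and 35.6 to 7.94, 12.1 and 16 CPM (-0.59 ± 0.21, adjusted p = 0.0293), and Psmb8 read 17.6, 38.4 and 50.2 on chow and 23.4, 25.2 and 33.9 on HFD (-0.35 ± 0.18, adjusted p = 0.125). Psme1 read 29, 37.1 and 51.9 and then 31.7, 36 and 41 CPM (-0.06 ± 0.11, adjusted p = 0.67).

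The chow spread of Psmb8 and Psmb9 followed the lymph node markers, which also moved with genotype on chow. The 5 chow libraries with 256 CPM of these markers or more read 30.6 to 50.2 CPM in Psmb8 and 16.9 to 35.6 in Psmb9, and the other 3, all KO, read 17.6 to 20.2 and 7.21 to 11. All 13 lymph node markers were lower on HFD in SAT. Without the lymph-node-rich libraries, which leaves only KO mice, Psmb9 had the other sign, at 0.22, Psmb10 stood at 0.85 and Psmb5 at 0.52, and 13 members were called, all higher. With the marker score as a covariate 19 were called, all higher, with Psmb9 at 0.09 and Psmb5 at 0.59. The share of all genes called in these fits is not given here. The lower counts therefore do not show a change particular to the members.

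In the related lists, 6 MHC class I genes rose in SAT and 3 fell, the latter with Nlrc5 at -0.93, and B2m and H2-K1 at 0.72 and 0.45. Of 19 partners 8 rose and 1 fell, with Zfand2a, an arsenite-inducible cap-binding protein, at 0.84, the core assembly factor Pomp at 0.54 and the segregase Vcp at 0.30. The regulator Nfe2l1 rose by 0.61, and Ngly1 and Ddi2 stood at -0.34 and -0.37.

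In VAT, 23 of 49 members changed on HFD: 22 rose and 1 fell, where 21.5% of all genes tested rose and 23.5% fell. The median log2 change was 0.28 over the members and -0.05 over all genes, and 43 of the 49 were above 0. Without the libraries rich in epididymis markers, chow KO replicate 1 and chow WT replicate 2, 19 rose and 2 fell, with no share of all genes given for that fit. The 3 constitutive catalytic and the 3 immunoproteasome subunits all rose, with 4 of 7 alpha-ring genes, 2 of 4 structural beta subunits, 2 of 6 ATPases and 4 of 8 lid subunits. The 1 that fell was the ATPase Psmc1, from 50.8, 63.2 and 79 to 42.2, 51.7 and 59.6 CPM (-0.40 ± 0.09, adjusted p = 0.00229, edgeR), while Psmc4 and Psmc3 of the same ring rose (0.28 ± 0.09 and 0.42 ± 0.18, adjusted p = 0.0176 and 0.0783). Psmc3 read 46.8 to 73.4 CPM in chow KO and 47.3 to 53.3 in chow WT. On HFD it read 62 to 72.2 in KO and 45.1 to 142 in WT (median 70.4), by far its most spread group in VAT. HFD WT replicate 4 and chow KO replicate 4 were rich in testis germ cell markers, as given below. Their part in the VAT diet changes was not tested.

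Psmb6 in VAT went from 33.8, 40.3 and 46.1 CPM to 39.3, 65.8 and 79.5, with 1 HFD library inside the chow range (0.65 ± 0.12, adjusted p = 7.56e-04, edgeR). Psmb5 went from 4.51, 6.56 and 8.45 to 6.99, 9.41 and 11 CPM (0.49 ± 0.12, adjusted p = 0.00466) and Psmb7 from 39.4, 48.3 and 55.3 to 39.9, 58.6 and 69.3 (0.24 ± 0.10, adjusted p = 0.06). The call of Psmb7 was lost, at 0.18 to 0.23, without chow KO replicate 3, chow WT replicate 3, HFD KO replicate 2 or HFD WT replicate 2. Of the structural beta subunits, Psmb2 went from 23.2, 27.4 and 34 to 30.9, 39.2 and 46 CPM (0.47 ± 0.09, adjusted p = 0.00108) and Psmb3 from 14, 16.8 and 21.3 to 12.8, 22.6 and 26 (0.32 ± 0.11, adjusted p = 0.0303, edgeR). Psma5 of the alpha ring stood at 0.46 ± 0.11 (adjusted p = 0.00558), Psma4 at 0.39 ± 0.11 (adjusted p = 0.0152), and the lid subunits Psmd13 and Psmd8 at 0.30 ± 0.07 and 0.43 ± 0.11 (adjusted p = 0.00521 and 0.00778). Psmd2 of the base (0.23 ± 0.09, adjusted p = 0.063, edgeR) was lost, at 0.19 to 0.22, without chow KO replicate 1 or 2, chow WT replicate 2 or 4 or HFD WT replicate 3 or 4. Psmg4, a core chaperone, stood at 0.49 ± 0.15 (adjusted p = 0.0178).

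Among the immune members, Psmb10 rose in VAT from 7.56, 10.9 and 16.3 to 15, 22.7 and 25.4 CPM (0.93 ± 0.15, adjusted p = 2.59e-04, edgeR). Psmb8 rose from 9.61, 14.4 and 21.1 to 16, 26.9 and 31.8 CPM (0.78 ± 0.16, adjusted p = 0.00148) and Psmb9 from 5.13, 6.17 and 9.53 to 5.96, 10.3 and 11.4 (0.50 ± 0.17, adjusted p = 0.0319). In all 3, the lowest HFD libraries fell within the chow range. Psme2 rose from 21.3, 24.5 and 33.6 to 29.4, 43.7 and 55.1 CPM (0.72 ± 0.13, adjusted p = 5.9e-04), and Psme2b, a copy of it inside another gene's locus whose reads are uncertain, by 0.63 ± 0.19 (adjusted p = 0.0184, edgeR). Psme1 read 27.3, 31.4 and 38.8 and then 26.3, 37.5 and 42 CPM (0.13 ± 0.11, adjusted p = 0.351), and Psme4 125, 153 and 212 and then 139, 171 and 323 (0.21 ± 0.14, adjusted p = 0.277).

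These changes in VAT came with a change in cell content. The summed CPM of 11 macrophage markers was 409 to 1067 on chow and 1653 to 5453 on HFD, without overlap, with 10 of the 11 higher on HFD, and 8 of 9 adipocyte markers were lower. With the macrophage score as a covariate 0 members passed the test (edgeR), and the values were 0.36 for Psmb5, 0.11 for Psmb6, 0.25 for Psmb10, 0.14 for Psmb8 and 0.05 for Psmb9. The score itself separates the diets, so that fit leaves little of the diet contrast to test. Of the MHC class I genes 4 rose, with H2-K1 at 0.89, B2m at 0.67 and Tapbp at 0.53, and 0 fell. Among the Nfe2l2 targets Hmox1 rose by 1.28 while Nqo1 (-1.94) and Gclc (-0.76) fell.

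**Figure D3:**
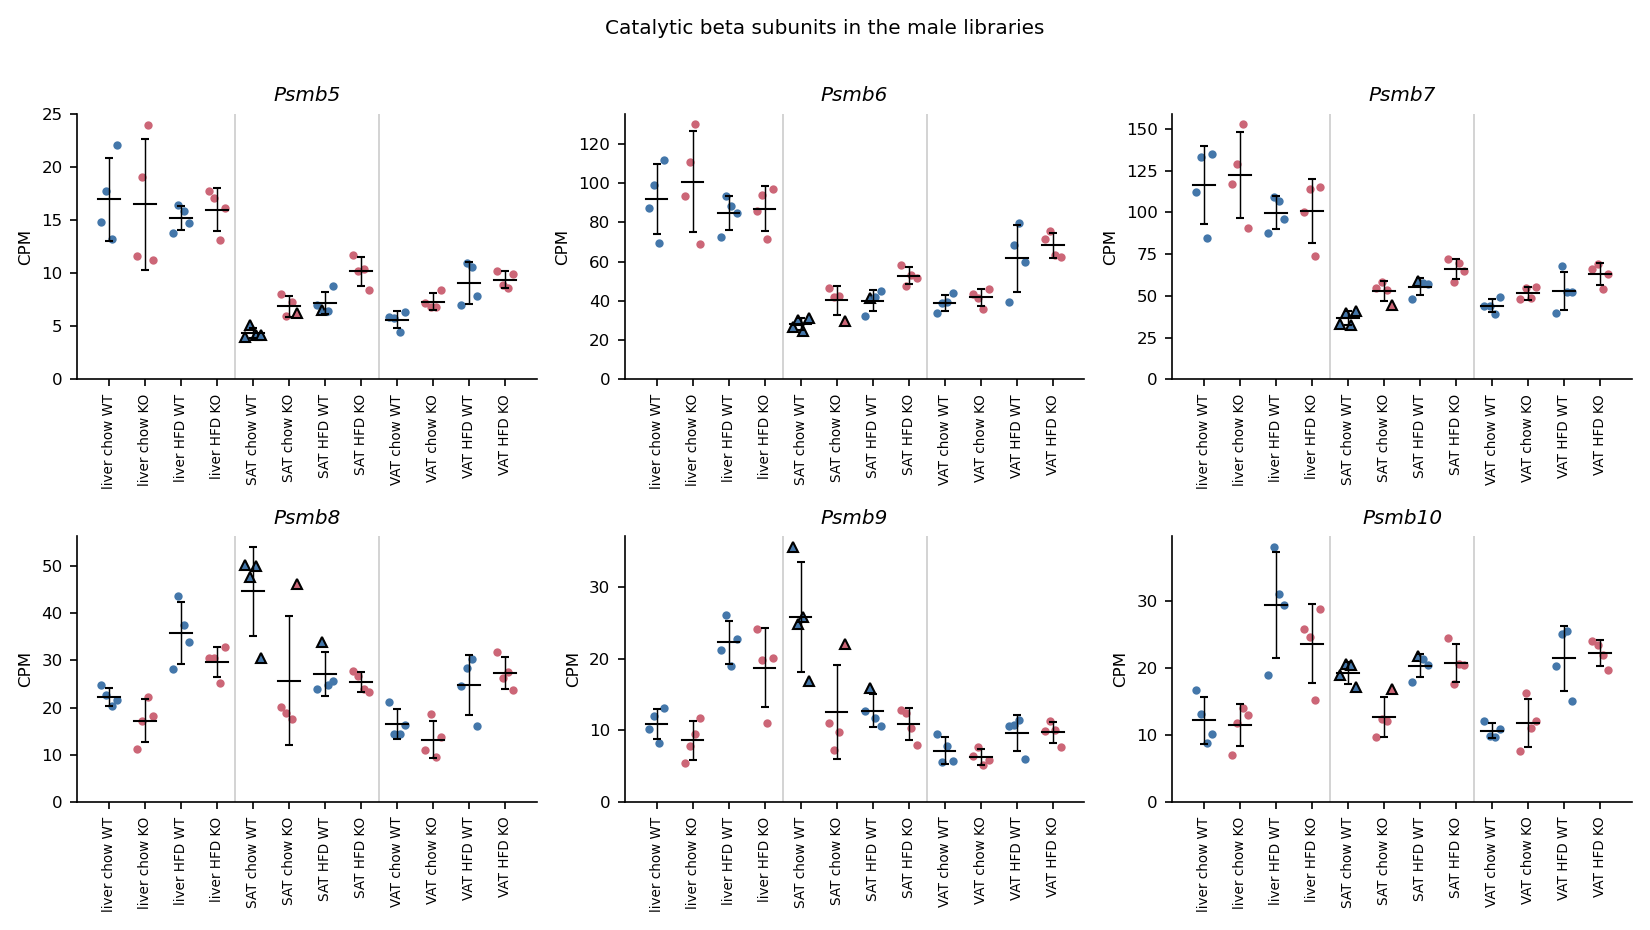
CPM of the constitutive (top) and immunoproteasome (bottom) catalytic genes in each male library, by tissue, diet and genotype (WT blue, KO red), with the mean and SD of 4 libraries. Black-edged triangles mark SAT libraries with more than 200 CPM of lymph node markers. They are the highest chow SAT values of Psmb8 and Psmb9. The liver values of Psmb8 to Psmb10 are higher on HFD, those of Psmb5 to Psmb7 are not.

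The difference between tissues in the diet effect was tested itself, over all 48 male libraries. Between liver and SAT, 32 of 49 members differed, 28 with a lower and 4 with a higher HFD effect in liver, where 12.2% of all genes were lower and 15.5% higher. The members' median difference was -0.46, against 0.07 for all genes. The lower side held all 6 ATPases, all 3 constitutive catalytic and all 4 structural beta subunits, the 3 other base subunits, 5 of 7 alpha-ring and 5 of 8 lid genes. Psmd9 had the lowest value (-1.02, adjusted p = 2.54e-07, edgeR), and Psmb5 stood at -0.80 ± 0.18 (adjusted p = 0.00138). The higher side held Psmb8 (1.04), Psmb9 (1.65 ± 0.26, adjusted p = 2.11e-05), Psmb10 (0.72, adjusted p = 0.0136) and Psme2b (1.31). In KO mice without the lymph-node-rich SAT libraries 3 members differed, all lower in liver. That fit has fewer libraries, and the share of all genes called in it is not given here.

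Between liver and VAT 26 members differed and all had a lower HFD effect in liver, where 14.8% of all genes were lower and 18.8% higher, with medians of -0.42 for the members and 0.08 for all genes. They included the 3 constitutive catalytic subunits (Psmb6 at -0.86), 6 of 7 alpha-ring genes (Psma5 at -0.85), 4 of 6 ATPases and 5 of 8 lid genes (Psmd6 at -0.85). None of the 3 immunoproteasome genes differed between liver and VAT by this test, with values of -0.09 to 0.56. Between VAT and SAT only 5 members differed, where 19.1% of all genes were lower and 17.8% higher. They were the 3 immunoproteasome genes and Psme2b, all with a higher HFD effect in VAT, and Psmc1, with a lower one (4 to 1, and 4 to 3 with upper-quartile scaling). Psmb8 stood at 1.14 ± 0.23 (adjusted p = 2.07e-04, edgeR). In KO mice without the lymph-node-rich libraries and with the lymph node score as covariate 0 members differed between the depots, and without VAT male HFD WT replicate 4 there were 9. The share of all genes called in these fits is not given here.

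The balance of immune and constitutive catalytic transcripts was followed as the ratio of counts per kilobase within each library, which does not depend on scaling between libraries. It is a ratio of mRNA in bulk tissue and does not measure which subunits the particles hold. In liver the ratio of Psmb8 to Psmb5 went from 0.24, 0.299 and 0.445 on chow to 0.456, 0.541 and 0.707 on HFD, 1.74-fold and with no overlap (adjusted p = 0.0012, exact permutation test within genotype, two-sided, over 9 tests). Psmb10 to Psmb7 went from 0.119, 0.191 and 0.299 to 0.412, 0.509 and 0.698, 2.64-fold and with no overlap (adjusted p = 0.0012, exact permutation). Psmb9 to Psmb6 went from 0.0296, 0.0598 and 0.0872 to 0.0792, 0.124 and 0.15, 2.35-fold (adjusted p = 0.0018, exact permutation). All 3 liver ratios were thus higher on HFD, and of the constitutive members Psmb6 and Psmb7 had fallen while Psmb5 had not passed the test. The smallest raw p that the 4900 permutations allow is 0.000408.

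In VAT only Psmb10 to Psmb7 changed, from 0.315, 0.45 and 0.598 to 0.576, 0.735 and 1.02, 1.64-fold (adjusted p = 0.0012, exact permutation). Psmb8 to Psmb5 was 1.23-fold (adjusted p = 0.171) and Psmb9 to Psmb6 0.91-fold (adjusted p = 0.566, exact permutation). Both members of each of these pairs had risen. Without VAT male chow WT replicate 1 the Psmb8 to Psmb5 ratio passed the test, at 0.39 on the log2 scale. In SAT, Psmb8 to Psmb5 went from 0.643, 1.94 and 3.31 to 0.608, 0.757 and 1.37, 0.52-fold (adjusted p = 0.0066), Psmb9 to Psmb6 was 0.501-fold (adjusted p = 0.0129) and Psmb10 to Psmb7 0.957-fold (adjusted p = 0.72, exact permutation). The 3 chow KO libraries of SAT with few lymph node markers lay in the HFD range for the first ratio, and among KO libraries without that signal the log2 changes were -0.10, -0.05 and 0.62.

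**Figure D4:**
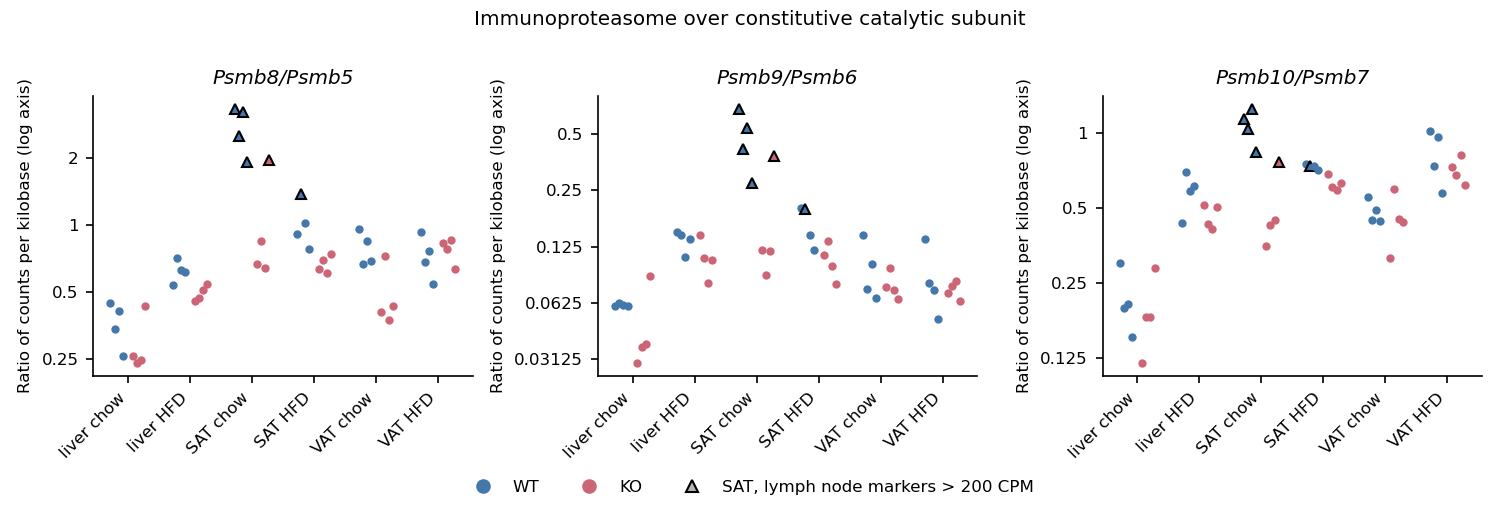
Ratio of counts per kilobase of each immunoproteasome gene to the constitutive gene it replaces, on log axes, in each male library by tissue and diet (WT blue, KO red), with triangles for SAT libraries with more than 200 CPM of lymph node markers. The 3 ratios are higher on HFD in liver, and the highest SAT chow points are the triangles.

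Genotype was tested where it had played no part in choosing the family. In liver 0 of 48 members passed the test between KO and WT, where 0% of all genes did, and 4 members had an unadjusted p under 0.05 (edgeR). DESeq2 and limma-voom called 0 as well, also in both female comparisons that follow. The median was 0.10 over the members and -0.00 over all genes. The 4 were Psma2 (0.24 ± 0.11), Psmd5 (0.21 ± 0.09), Psmg1 (0.20 ± 0.09) and Psmb8 (-0.23 ± 0.09), with adjusted p-values of 0.419 or more. Psmb3 read 41.6, 46.8, 64 and 32.2 CPM in chow KO liver, 41.1, 50.2, 31.3 and 50.5 in chow WT, 38.3, 41.7, 34.4 and 41 in HFD KO and 31.9, 39.6, 40.4 and 33.4 in HFD WT. The genotypes overlapped on both diets (0.17 ± 0.10, adjusted p = 0.599, edgeR).

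In female SAT 0 of 48 members passed, where 0.006% of all genes did, and 0 had an unadjusted p under 0.05 (edgeR). Psmb3 read 21.8, 16.4, 16.1 and 20 CPM in KO and 18.4, 17.5 and 19.5 in WT (-0.00 ± 0.14, adjusted p = 0.999). In female VAT 0 of 49 members passed, where 0.00601% of all genes did, and 5 had an unadjusted p under 0.05 (edgeR), namely Psmc2, Psmc4, Psmd10, Psmd7 and Psmd5 (0.26 ± 0.08, adjusted p = 0.765). Psmb3 read 23, 20.5, 21.8 and 19.2 CPM in KO and 20.6, 18.3 and 18.6 in WT (0.14 ± 0.09, adjusted p = 0.823). Psmb5 differed by 0.16 ± 0.17 in female SAT and 0.02 ± 0.15 in female VAT (adjusted p = 0.963 and 0.991, edgeR). The members' medians were 0.04 and 0.08, against 0.01 and 0.01 for all genes. KO and WT females were spread unevenly over lanes, and female SAT KO replicate 2 held 453 CPM of lymph node markers.

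**Figure D5:**
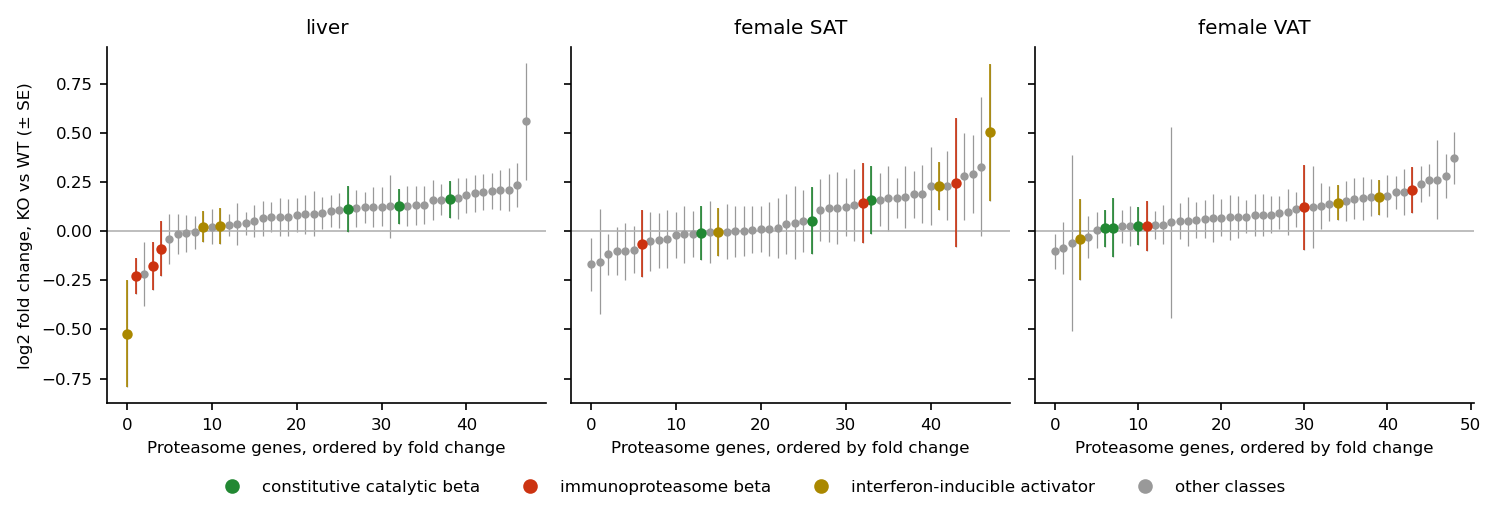
log2 fold change of KO against WT, with SE, of each tested proteasome gene in liver, female SAT and female VAT, ordered by value, with the catalytic and interferon-inducible classes coloured. None passed a false discovery rate of 10% in these 3 comparisons. In liver the 3 immunoproteasome genes are among the values below 0.

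The effect of HFD was also compared between KO and WT. The difference passed the test for 0 members in liver, SAT and VAT (edgeR), where 0%, 0.0173% and 0.00577% of all genes did. The members with an unadjusted p under 0.05 numbered 0, 5 and 4. In SAT these were Psmb10 (0.62 ± 0.21, adjusted p = 0.192), Psmd8, Psmd1, Psmd2 and Psme4. DESeq2 called 2 members in SAT and 0 in liver and VAT, and limma-voom 0 in each. Without SAT male chow KO replicate 4, the chow KO library rich in lymph node markers, 14 were called, 5 with a higher and 9 with a lower HFD effect in KO. In that fit 13% of all genes were higher and 16.3% lower, near the shares among the members. On chow all 4 WT libraries of SAT and no other KO library held 256 CPM or more of these markers, and the part of lymph node content in this difference was not tested.

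In the comparison the family was chosen by, KO against WT in all 32 fat libraries of males, adjusted for depot and diet, 17 of 49 members were higher in KO at a false discovery rate of 10% and 0 lower, where 2.62% of all genes were higher and 1.34% lower. The family was chosen by a member's place in this same contrast, so these counts only describe it and nothing is read from them. The log2 differences were highest in Psma1 (0.43 ± 0.09), Psmb5 (0.39 ± 0.08), Psmb3 (0.38 ± 0.06) and Psmd6 (0.35 ± 0.07), and the 3 immunoproteasome genes lay between -0.39 and -0.11. Psmb3 read 20, 16.3, 22.4 and 18.9 CPM in chow KO SAT and 13.8, 15.2, 13.9 and 16.9 in chow WT. On HFD it read 27.4, 22.2, 24.3 and 24.3 in KO SAT and 16.4, 18, 19.4 and 17.6 in WT. In VAT it read 21.3, 17.6, 18.2 and 16.9 against 14.1, 14, 14.3 and 16.6 on chow, and 26, 24.5, 21.6 and 23.6 against 12.8, 23.8, 21.2 and 17.4 on HFD. The genotypes overlapped in chow SAT and HFD VAT and not in HFD SAT or chow VAT. The lymph node markers, high in all chow WT SAT libraries, move with genotype here. With their score as a covariate the count was 11, and on HFD without the library rich in them it was 0. The latter fit used HFD libraries only and so fewer of them. The share of all genes called in either fit is not given here, and the part of lymph node content was not tested.

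The genes with a role outside somatic tissue were low in most libraries. Psma8 read 0 to 1.54 CPM in male libraries other than VAT male HFD WT replicate 4, at 24.6, and VAT male chow KO replicate 4, at 5.82. Psmc3ip read 15.1 and 5.1 CPM in the same libraries, and Psmf1 66.5 and 32.2 CPM against 16.2 to 22.4 in the other male VAT libraries. The sum of 4 testis germ cell markers in these libraries was 1439 and 443 CPM. Psme4 had its highest value in VAT, 323 CPM, in the first of them.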

How the data were processed

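The deposited table holds raw read counts per Ensembl gene, which the authors made with STAR on mouse tissue RNA libraries (TruSeq Stranded). The submitters' processing notes name STAR 2.5.3a and mm10, the study's methods another release of STAR, and the strand setting is not given in the sources used here, so reads of genes that overlap on opposite strands may be mixed. Replicates were not pooled. All 62 libraries were used in the groups their labels give, and 0 columns were left unused.

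Gene symbols came from GENCODE M21 (48435 of 48795 IDs matched, 99.3%). Within each comparison, genes were filtered with filterByExpr, scaled by TMM and tested by edgeR 4.0.16 (R 4.3.3), by quasi-likelihood, with p-values adjusted after Benjamini-Hochberg across every gene in the fit at a false discovery rate of 10%. The SE is the log2 change over the root of F. CPM used TMM factors over all libraries, and RPKM the merged exon length. Diet contrasts average KO and WT. The catalytic ratios were compared by exact permutation of diet within genotype, on counts per kilobase rather than TPM, which gives the same ratio.

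The members and all gene lists were chosen with earlier results of these data known. Values are printed for the catalytic beta subunits, Psme1, Psme2, Psme4, Psmb3 and the 2 called members of each class with the smallest p, and at most 4 called genes of each other list. Those lists were MHC class I loading, interferon response, proteasome partners, ubiquitin supply, regulators and Nfe2l2 targets, beside markers of lymph node, macrophage, adipocyte, hepatocyte, epididymis, testis germ cell and beige fat. Genes singled out beyond this rule (Psmd9 between tissues, Psmd11, Psme2b, Psme3, Psmf1, Psmg3, Psmg4, Hpd, Psma8, Psmc3ip) were picked with their values in view. The fits were tested on simulated counts with known changes. RNA quality, time to extraction and hidden factors, which the study's model used, were not used here. Alternatives were DESeq2 1.42.0, limma 3.58.1 (voom), other scalings and filters, marker and ribosomal RNA covariates, 1 genotype or diet alone and each library left out. Total counts were 4959783 to 28723319 per library, and the lowest count of a catalytic gene was 11, for Psmb9 in liver male HFD KO replicate 3. p-values cover the spread between libraries, not tissue dissection.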

Additional observations from a re-analysis of the deposited data

Results flagged for a closer look

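Each of 10 genes was checked in each group of 4 libraries, so the 140 checks share libraries and are not independent. Chance flags about 1 in 20 checks. In 10 of the 140, the highest or lowest library stood far from the other 3. Of these, 5 were in chow or HFD SAT of males: Psmb8 read 46.1 CPM in chow KO replicate 4 (others 17.6 to 20.2), 30.6 in chow WT replicate 4 (others 47.6 to 50.2) and 33.9 in HFD WT replicate 2 (others 24 to 25.6), Psme1 read 45.2 in chow KO replicate 4 (others 29 to 30.7), and Psmb7 read 48 in HFD WT replicate 1 (others 57.3 to 58.7). The summed lymph node marker level was 578 CPM in that chow KO library, 256 in the chow WT library and 299 in HFD WT replicate 2, each at odds with the rest of its group in the same direction as Psmb8, and its part was not tested.

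In female SAT, Psmb5 read 9.4 CPM in KO replicate 1 (others 6.58 to 6.96) and Psme4 read 142 in KO replicate 2 (others 199 to 206), the library with 453 CPM of lymph node markers. In male VAT, Psmb9 read 5.96 CPM in HFD WT replicate 4 (others 10.6 to 11.4), the library with 1439 CPM of testis germ cell markers, and Psmb3 read 16.6 in chow WT replicate 4 (others 14 to 14.3). In liver, Psme4 read 195 CPM in HFD KO replicate 3 (others 285 to 295), the library with 75.4% ribosomal RNA.

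The HFD effect differed between liver and SAT, by the test of the difference itself (log2, liver minus SAT, edgeR), in Psmb5 (-0.80), Psmb6 (-0.66), Psmb7 (-0.76), Psmb3 (-0.59) and Psme4 (-0.85) on the lower side and Psmb8 (1.04), Psmb9 (1.65) and Psmb10 (0.72) on the higher side. Between liver and VAT it differed in Psmb5 (-0.64), Psmb6 (-0.86), Psmb7 (-0.53), Psmb3 (-0.62) and Psme4 (-0.61). Between VAT and SAT it differed in Psmb8 (1.14), Psmb9 (1.09) and Psmb10 (0.53).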

How the results depend on the processing

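No paired analysis was possible because the labels carry no replicate numbers and do not link the tissues of a mouse. Counts of called members kept within 1.5 times the reported one under the alternatives tried, other than those given here. The HFD count in liver (33) was 15 in WT and 16 in KO alone. The HFD count in SAT (32) was 19 with the lymph node score as covariate, 18 in KO alone and, in KO without the lymph-node-rich libraries (an alternative chosen after seeing the data, as are all those without marker-rich libraries), 13. The HFD count in VAT (23) was 0 with the macrophage score and 9 in KO alone. The KO and WT difference of the HFD effect in SAT (0) was 2 by DESeq2. KO against WT in female SAT (0) gave 1 with the lymph node score. In male SAT and VAT (17) it gave 11 with that score and 0 on HFD without the lymph-node-rich library. VAT against SAT (18) gave 11 at a false discovery rate of 5%, 0 in KO on chow without the lymph-node-rich library and 6 in WT on HFD. The liver and SAT difference (32) was 3 in KO without these libraries. The VAT and SAT difference (5) was 0 there, 0 with the lymph node score and 1 with the macrophage score. Of the 9 ratios, 6 passed the test and 3 did in KO alone. The cause of these moves was not tested, except that 1 genotype alone has fewer libraries. Other than where it is printed above, the share of all genes called in a refit is not given here. A changed count therefore does not show a change particular to the members.

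Leaving out each library gave 25 to 35 calls for HFD in liver, 30 to 36 in SAT, 19 to 30 in VAT, 0 to 14 for the KO and WT difference in SAT, 13 to 19 in male SAT and VAT, 45 to 47 and 45 to 48 for liver against SAT and VAT, 11 to 19 for VAT against SAT, 28 to 34, 24 to 29 and 5 to 9 for the differences between liver and SAT, liver and VAT, and VAT and SAT, and 6 to 7 ratios.

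Single genes took the other sign as follows. For HFD in SAT, Psmb9 was 0.094 with the lymph node score, and in KO without the lymph-node-rich libraries Psmb9 was 0.22, Psme2b 0.17, Psmd1 -0.047 and the Psmb10 to Psmb7 ratio 0.62. For HFD in VAT with the macrophage score, Psmc4 was -0.092, Psma4 -0.25, Psmb7 -0.017, Psme2b -0.040, Psmd13 -0.046, Psmd8 -0.078 and Psmb3 -0.087. For liver against SAT, Psmb10 was 0.12 in KO on chow without the lymph-node-rich library and 0.44 in WT on HFD, where Psmb8 was 0.31 and Psmb9 0.71, and Psme2 was -0.016 with upper-quartile scaling, under which Psme3 was -0.059 for liver against VAT. For VAT against SAT in WT on HFD, Psmc1 was -0.073, Psmb10 0.046 and Psme2b 0.24, and in KO on chow without the lymph-node-rich library Psmc4 was -0.029, Psmb6 -0.052, Psmb10 0.058, Psme1 0.10, Psme2 0.17, Psme2b 0.18, Psmd8 -0.18, Psmd2 -0.021 and Psmd4 -0.035.

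Depth limits the low genes most: Psmb5 had 13 counts and Psmb9 11 in the shallowest library, liver male HFD KO replicate 3. Genotype tests in females rest on 4 against 3 libraries. A count of 0 there does not show that KO and WT were alike.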

Other observations

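The related gene lists had these values on HFD in each male tissue, and the tests here are within a tissue. Of 6 tested genes of ubiquitin supply, 1 rose and 3 fell in male liver, with the ubiquitin precursor Rps27a at -0.64, the activating enzyme Uba6 at -0.41 and Ubb at 0.24. In SAT 3 rose and 1 fell, with the activating enzyme Uba1 at 0.39, Ubb at 0.50 and Rps27a at -0.44. In VAT 3 rose and 0 fell, with Uba6 at 0.53. Among 13 tested interferon-response genes 6 rose and 3 fell in SAT, with Ifit3 at 1.03 and Gbp2 at 0.82, and 5 rose and 0 fell in VAT, with Ifit3 at 0.85. Of 19 proteasome partners in VAT 4 rose and 3 fell, with Zfand2a at 0.91, the lid component Sem1 at 0.68, Pomp at 0.43 and Ecpas at -0.35, and of 5 regulators Nfe2l2 stood at 0.25 and Ngly1 at -0.44.

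Of 6 Nfe2l2 targets, 1 rose and 1 fell in HFD liver (Nqo1 at 0.31 and Srxn1 at -0.27), and 3 rose and 1 fell in SAT (Gclm at 0.48, Hmox1 at 0.83, Srxn1 at 0.32 and Gclc at -0.39). Between KO and WT, 0 genes of any of these lists passed the test in liver, female SAT or female VAT (edgeR). The summed level of 4 beige fat markers was at most 37 CPM in any library. Epididymis markers summed to 10379 CPM in VAT male chow KO replicate 1 and 3806 in chow WT replicate 2, and to at most 0.615 in liver and 0.244 in SAT.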
